A study of Mus musculus with 26 samples.

Results

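Constitutive loss of Spred1 was compared with wild type Spred1 in leukaemic stem cells of mice with chronic myeloid leukaemia (CML). The comparison takes the 6 libraries labelled global Spred1 KO and the 5 labelled Spred1 wt, 11 of the 26 libraries of the series. It covers the 13379 genes with enough counts to test, of which 13129 lie outside a stretch of chromosome 2 that flanks Spred1 on both sides and 250 lie within it. The account below concerns the genes outside that flank.

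Every library was RNA of Lin-Sca-1+c-Kit+ (LSK) cells, the marrow fraction that holds stem and early progenitor cells, sorted from C57BL/6 mice with CML. For the other groups the labels name the disease model as SCLtTA/BCR-ABL, in which an SCL-driven tetracycline transactivator switches on the BCR-ABL oncogene in haematopoietic cells. For the global KO and Spred1 wt groups they say CML mice, and give no age and no treatment. The other 3 groups, of 5 libraries each, entered the fit and served as reference: Spred1 deletion in haematopoietic cells by Mx1-cre (HSC KO), its control (HSC wt), and deletion in endothelial cells (EC KO), whose Cre driver the labels do not name. Both HSC groups had received 7 doses of 250 µg poly(I:C), a double-stranded RNA that induces Mx1-cre and an interferon response, every 2 days. No statement in the labels ties the global KO and Spred1 wt libraries to separate mice, so the p-values measure the spread between libraries.

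SPRED1 is a membrane-bound brake on RAS signalling. It brings neurofibromin, which switches RAS off, to the membrane, and so limits the RAF, MEK and ERK kinases downstream. BCR-ABL itself feeds this cascade in CML, and active ERK induces its own feedback inhibitors, the Sprouty, SPRED and dual-specificity phosphatase genes, as well as cyclin D1 and the ETV transcription factors.

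Total counts per library ran from 16010400 to 20399100 in the global KO group and from 14816100 to 20197400 in the Spred1 wt group. Levels are given as CPM, which are counts scaled to library size with TMM factors, and a gene is called when its adjusted p is under 0.05 in edgeR's quasi-likelihood test with Benjamini-Hochberg adjustment. Of the 11 libraries, 4 stood apart in mast cell genes: the summed level of 16 mast cell and basophil markers was 15600 CPM in global KO library 2 and 18500, 11700 and 12000 CPM in Spred1 wt libraries 3, 4 and 5. In the 7 other libraries it ran from 2220 to 5350 CPM. The first principal component, with 42.8% of the variance among the 11 libraries, had its 4 highest scores in the same 4. Mature neutrophil markers were highest in Spred1 wt library 1, at a summed 980 CPM, and ran from 127 to 446 CPM in the other 10.

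The targeted gene followed the labels. Spred1 was at 22.4, 44.5, 28.1, 33.1, 33.1 and 34.7 CPM in the 6 global KO libraries and at 92.4, 106, 148, 110 and 115 CPM in the 5 Spred1 wt libraries. Its log2 difference was -1.81 ± 0.15 (SE; adjusted p = 2.86e-08), so that counts over the gene remained at a mean of 32.7 ± 7.36 CPM (SD, n = 6). The labels do not say which part of the gene was removed.

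Few genes outside the flank differed. Over all 13379 genes 10 were called, or 0.0747%. Of the 13129 tested outside it, 2 rose and 2 fell, or 0.0305%, against 6 of 250, or 2.4%, inside it. At an unadjusted p under 0.05 the shares were 5.23% outside and 21.2% inside. Over all genes 0.0224% rose and 0.0523% fell, 2.49% were higher and 3.04% lower at an unadjusted p under 0.05, and the median log2 difference outside the flank was 0.01, with quartiles at -0.08 and 0.08. The 2 genes that rose were Ccnd1, which encodes cyclin D1, and St6galnac2, which encodes a sialyltransferase. The 2 that fell, Mtrr and Fastkd3, are head-to-head neighbours on chromosome 13. The plot of difference against p shows these 4 apart from all other genes.

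**Figure D1:**
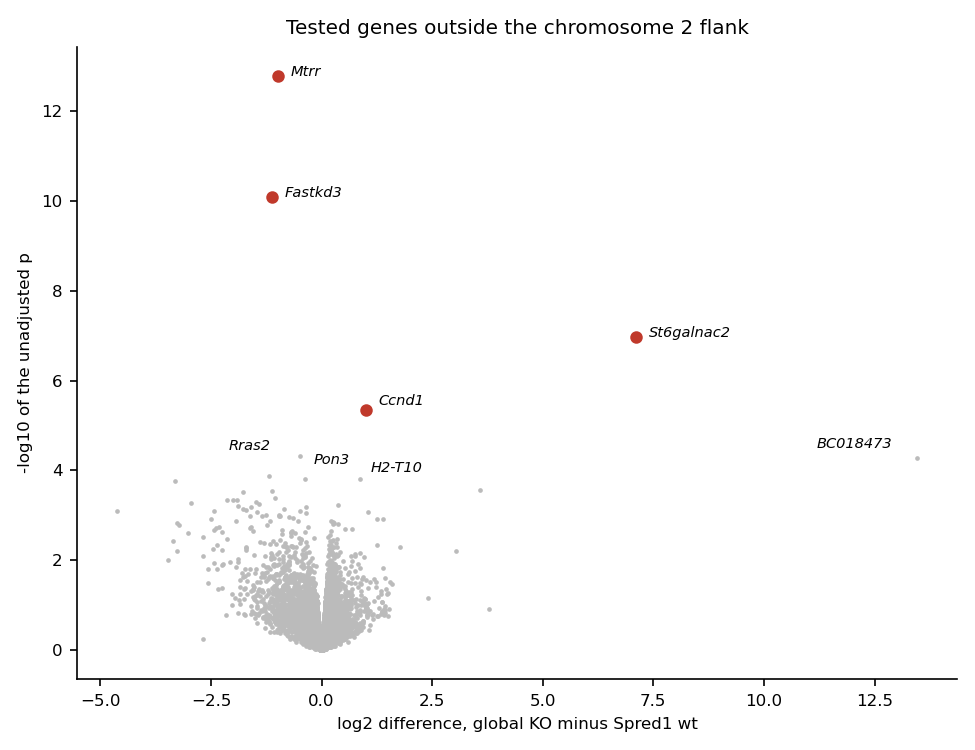
Each point is 1 of the 13129 tested genes outside the chromosome 2 flank. The x axis is the log2 difference, global KO minus Spred1 wt, and the y axis is -log10 of the unadjusted p; red points passed an adjusted p of 0.05. Mtrr and Fastkd3 stand highest, at about 1 log2 unit below 0, St6galnac2 lies far to the right, and BC018473 is the rightmost point but did not pass.

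Cyclin D1 drives cells through G1 by activating CDK4 and CDK6, and its gene is a classic ERK target. Ccnd1 (chromosome 7, 144929931 to 144939925, minus strand, mm10) was at 78.3, 63.7, 80.6, 109, 85.8 and 109 CPM in the global KO libraries and at 52.0, 54.7, 44.3, 30.1 and 37.6 CPM in the Spred1 wt libraries. All 6 global KO libraries lay above all 5 Spred1 wt libraries. The gene rose 2.01-fold (log2 difference 1 ± 0.17 SE, adjusted p = 0.00738), from a mean of 43.7 ± 10.2 CPM (SD, n = 5) to 87.8 ± 18.2 CPM (SD, n = 6). Fitted on the 2 groups alone, the log2 difference was 0.99 and the adjusted p 0.183; in the other 19 alternatives, which include leaving out each library, the adjusted p stayed at or under 0.0477. With the mast cell markers as a covariate the log2 difference was 1.03, and with the neutrophil markers it was 1.03. None of the 6 tested genes within 500 kb of Ccnd1 was called, and their log2 differences ran from -0.10 to 0.28.

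The other D-type cyclins did not follow Ccnd1 past the threshold. Ccnd2 had a log2 difference of 0.11 ± 0.06 (SE; adjusted p = 0.917) and a mean of 391 CPM in the global KO libraries. Ccnd3 was at -0.05 ± 0.08 (SE; adjusted p = 0.999). In the HSC KO comparison, which uses its own controls, Ccnd1 had a log2 difference of 0.67 ± 0.18 (SE; adjusted p = 0.999); its libraries ran from 67.8 to 86.1 CPM against 36.1 to 54.1 CPM in HSC wt. The EC KO libraries were at 86, 78.5, 56.4, 49.2 and 48.9 CPM. They overlapped both the global KO range of 63.7 to 109 CPM and the Spred1 wt range of 30.1 to 54.7 CPM. The global KO effect minus the HSC KO effect was 0.34 ± 0.24 (SE; adjusted p = 1 in edgeR's interaction test), so the effects were not shown to differ for this gene.

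**Figure D2:**
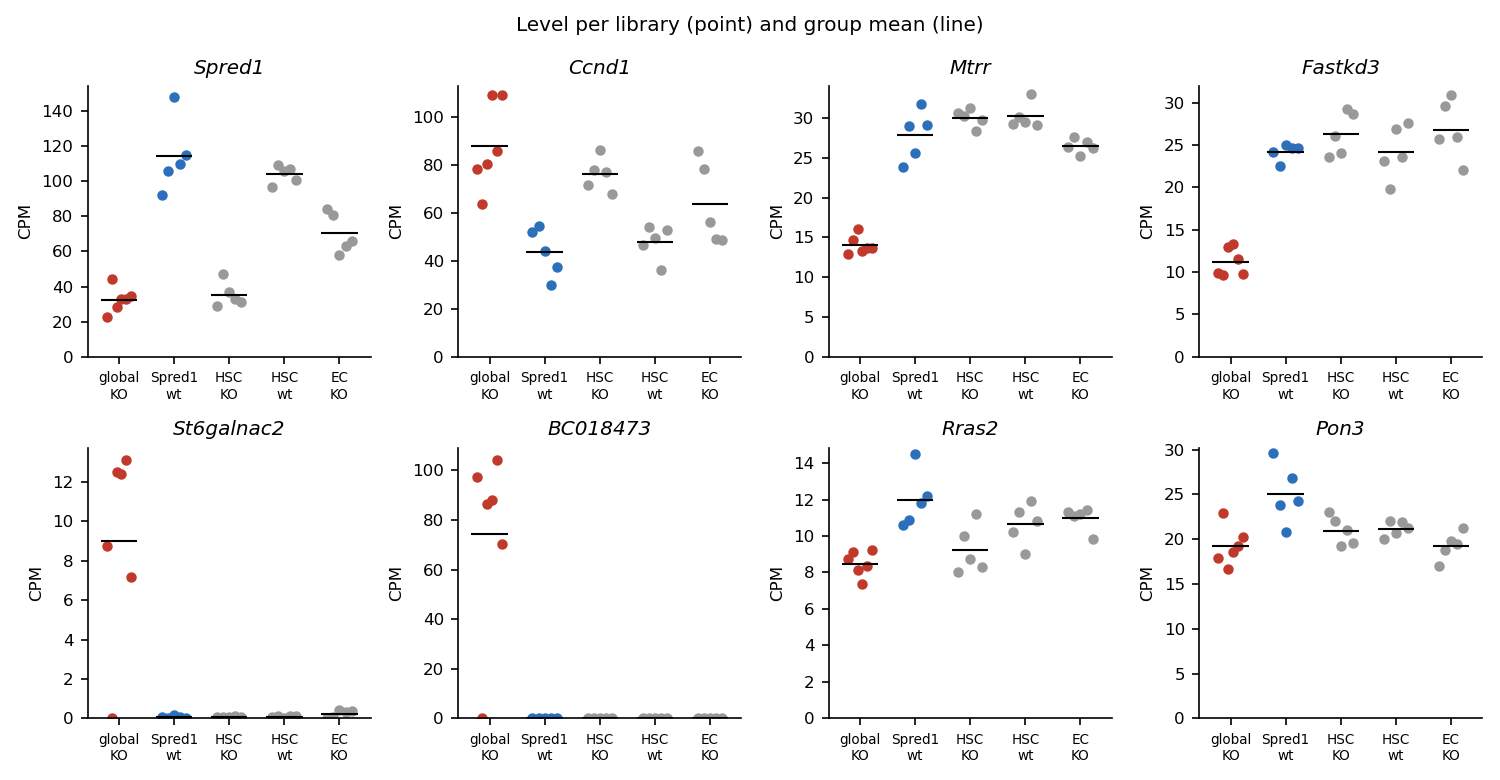
Level in CPM (y axes, linear, from 0) of 8 genes in each library (points) of the 5 groups, with the group mean as a line; red is global KO, blue Spred1 wt and grey the other groups. Mtrr and Fastkd3 are low in global KO alone, and St6galnac2 and BC018473 are present in 5 of the 6 global KO libraries.

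Mtrr and Fastkd3 fell to about the same extent and with the smallest p-values outside the flank. MTRR is methionine synthase reductase, which keeps the cobalamin cofactor of methionine synthase active, and FASTKD3 is a mitochondrial protein of the FASTK family, which acts on mitochondrial RNA. Mtrr (chromosome 13, 68560780 to 68582169, minus strand) was at 12.9, 14.7, 16.1, 13.3, 13.7 and 13.7 CPM in the global KO libraries and at 23.8, 29.0, 25.6, 31.8 and 29.1 CPM in the Spred1 wt libraries. Its log2 difference was -0.98 ± 0.07 (SE; adjusted p = 2.23e-09). All 6 global KO libraries lay below all 5 Spred1 wt libraries.

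Fastkd3 (chromosome 13, 68582248 to 68592279, plus strand) was at 9.92, 9.63, 13, 13.3, 11.5 and 9.78 CPM in the global KO libraries and at 24.2, 22.5, 25, 24.6 and 24.6 CPM in the Spred1 wt libraries. Again no global KO library reached the lowest Spred1 wt library. Its log2 difference was -1.11 ± 0.10 (SE; adjusted p = 3.71e-07). Both genes were called in all 20 alternatives, with adjusted p-values at or under 0.000452. The highest global KO library for Mtrr, at 16.1 CPM, was also below every library of the other 3 groups, which ran from 25.2 to 33 CPM, and Fastkd3 ran from 19.8 to 30.9 CPM there. The only 2 genes outside the flank whose global KO and HSC KO effects differed were Mtrr, by -0.98 ± 0.10 (SE; adjusted p = 5.48e-06), and Fastkd3, by -1.23 ± 0.15 (SE; adjusted p = 8.37e-05). They are 0.0149% of the genes tested. By Xist, a transcript of female cells, the HSC groups mixed the sexes. In CPM without TMM factors it was at 4620, 3080 and 2790 in HSC KO libraries 1, 4 and 5. It was at 3180 and 3110 in HSC wt libraries 4 and 5, and at most 5.09 in the global KO and Spred1 wt libraries. The interaction test did not adjust for sex.

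As deposited, the start of Mtrr on the minus strand and that of Fastkd3 on the plus strand are separated by 78 bases, so the pair shares a start region. It is shown in part here because both genes fell together. Of the 4 genes called outside the flank, the RefSeq promoter table (GRCm38.p6) held Mtrr and Fastkd3. The Fastkd3 window there, chr13:68581960-68582259, has 250 bases before the start annotated in RefSeq and 50 after it. That start lies ahead of the deposited Fastkd3 start, so the 78 bases above do not apply to it. The window covers both deposited starts and is 70.7% G or C. Both strands were searched for the NRF1 motif, GGGCGG (GC box), CCAAT and TGACGTCA (cyclic AMP response element). Matches are in capitals in these 30-base stretches, which are written on the plus strand, and no 2 matches overlapped:

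chr13:68581992-68582021: catccccactGCGCAGGCGCgagtcccggc

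chr13:68582118-68582147: cgggagcactGCGCACGCGCgcggcacagc

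chr13:68582175-68582204: acatgcGGGCGGacctgggCCAATcgctga

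chr13:68582230-68582259: ccttagtgccGCGCACGCGCcggaatgttc

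The window held 3 matches to the NRF1 motif. Of the 32851 promoter windows of this length in the table, 4.6% held at least 1 and 0.0974% held at least 3. It held 1 match to GGGCGG, found in 35.7% of windows, and 1 to CCAAT, found in 37.4%. The letters TGACGTCA were not in this window and were in 1.79% of windows. A match describes the sequence and is not a measured binding site.

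The genes that work with these 2 neighbours gave no further call. Among 21 tested genes of folate, methionine and cobalamin metabolism, 11 had a log2 difference above 0 and Mtrr was the 1 that fell; the median was 0.01 and the difference of mean log2 CPM -0.03. Mtr, the methionine synthase that MTRR reactivates, was at 0.06 ± 0.05 (SE; adjusted p = 0.944), with 132 ± 5.59 CPM (SD, n = 6) against 126 ± 3.62 (SD, n = 5). Lmbrd1, which exports cobalamin from lysosomes, was at -0.18 ± 0.06 (SE; adjusted p = 0.44), and 5 of 6 global KO libraries lay below all Spred1 wt libraries. Among 20 tested genes of the FASTK family and of mitochondrial RNA processing, 12 were above 0, Fastkd3 was the 1 that fell, and the median was 0.03, with a difference of mean log2 CPM of -0.03.

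St6galnac2 was present in 5 of the 6 global KO libraries and nearly absent elsewhere. The enzyme adds sialic acid to N-acetylgalactosamine in O-linked glycans. Its level (chromosome 11, 116676705 to 116694660, minus strand) was 8.73, 0, 12.5, 12.4, 13.1 and 7.19 CPM in the global KO libraries and 0.0641, 0, 0.165, 0.0649 and 0 CPM in the Spred1 wt libraries. Global KO library 2 had no count, while the 5 others summed to 1004 counts, against 5 counts over all Spred1 wt libraries. The fitted log2 difference was 7.11 ± 0.96 (SE; adjusted p = 0.000293), a size that depends on the prior count. The call ended with limma voom (adjusted p = 0.508) and on the 2 groups alone (0.183), and the gene failed the low-count filter once any of the 5 global KO libraries that hold it was left out. Its highest level in the 15 libraries of the other groups was 0.438 CPM.

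Global KO library 2 was the exception across this stretch of chromosome 11. BC018473, a neighbouring gene known by its cDNA record (116752167 to 116757883, plus strand), was at 97.3, 0, 86.4, 87.9, 104 and 70.1 CPM in the global KO libraries and had no count in any Spred1 wt library. Against a limit of 3 counts over the whole Spred1 wt group, its mean of 74.3 CPM was at least 2120-fold higher, yet it did not pass in edgeR's test (adjusted p = 0.0544). It passed with all 6 libraries in DESeq2 (adjusted p = 1.32e-18) and with upper-quartile scaling (0.0485), and without global KO library 2 (3.25e-10). In the other 12 of 15 alternatives that tested it, it did not pass, with adjusted p-values up to 0.855. Nearby genes, named after their values were seen, had low counts of the same kind. St6galnac1, which overlaps BC018473 on the other strand, had 11, 1, 6, 9, 6 and 5 counts in the global KO libraries and 0 in every Spred1 wt library. Cygb, which encodes cytoglobin, had 16, 1, 10, 12, 15 and 7 against 0, 3, 1, 0 and 0. Whether counting used strand is not given in the sources used here, so reads of St6galnac1 and BC018473 cannot be told apart. Mxra7 had a log2 difference of 1.40 ± 0.38 (SE; adjusted p = 0.288), with 5 of 6 global KO libraries above all Spred1 wt libraries. Of the 22 tested genes within 500 kb of St6galnac2, 16 were higher, against 54.5% of all genes, and their median log2 difference was 0.05. In edgeR 0 of them were called, against 0.0747% of all genes. Of 21 tested sialic acid genes, St6galnac2 included, 9 were above 0 and the median was -0.02. St6galnac2 was the 1 that rose, and it enters the list's difference of mean log2 CPM of 0.15. St6galnac1 belongs to the same list but had too few counts to be tested.

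Next to the 4 called genes, Rras2 had the smallest p of those that were lower. It encodes an R-RAS family GTPase that, like RAS, signals to PI3K and RAF. Rras2 was at 8.73, 9.12, 8.12, 7.39, 8.33 and 9.24 CPM in the global KO libraries and at 10.6, 10.9, 14.5, 11.8 and 12.2 CPM in the Spred1 wt libraries. The groups did not overlap, but the log2 difference of -0.50 ± 0.10 (SE) missed the threshold at an adjusted p of 0.0542. Over 20 alternatives the adjusted p ran from 0.00196 to 0.764, and 6 of them passed, among them DESeq2. Without global KO library 2 or Spred1 wt library 1 or 2, the adjusted p was 0.0357, 0.0188 and 0.0449.

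The other genes of smallest p that were lower were in part highest in the same 2 libraries. Pon3, a lactonase of the paraoxonase family, had a log2 difference of -0.38 ± 0.09 (SE; adjusted p = 0.121), with 5 of 6 global KO libraries below all Spred1 wt libraries. Epas1, which encodes HIF-2α, was at 3.08, 3.94, 4.63, 23.8 and 19.9 CPM in the Spred1 wt libraries and at 1.75 to 5.16 CPM in the global KO libraries (adjusted p = 0.179). Gimap3, Mgl2 and Ttc30b were likewise highest in Spred1 wt libraries 4 and 5: Gimap3, for a GTPase of lymphocyte survival, was at 23.2 and 22.6 CPM there and at most 6.51 CPM in the 9 others. Mgl2, a lectin of macrophages and dendritic cells, was at 60.0 and 21.7 CPM there and between 4.35 and 13.5 CPM in the others. Those libraries also had high mast cell marker levels. Global KO library 2 and Spred1 wt library 3 had the highest mast cell marker sums. They were not high for Epas1, Gimap3, Mgl2 or Ttc30b. Epas1 was at 1.75 and 4.63 CPM there, and Gimap3 at 6.21 and 6.51 CPM. With the mast cell covariate the log2 difference of Epas1 was -1.57 ± 0.48 (SE), against -1.79 without it. The cause of these differences was not tested. Gpx3, the plasma glutathione peroxidase, was lower by -1.42 ± 0.36 (SE; adjusted p = 0.243). Evi5, Mdfic and Erc1 were at -0.35, -0.48 and -0.34, and Zfp979 at -0.94, where the groups did not overlap, with adjusted p-values from 0.243 to 0.271. Cd177, a neutrophil surface gene, is described with the neutrophil markers.

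Among genes that were higher without passing, H2-T10 and Tgif2 followed BC018473. H2-T10 encodes a nonclassical MHC class I protein and belongs to a family of near-identical genes that share reads. It was at 28.5, 21.8, 17.8, 22.5, 11.7 and 27.6 CPM in the global KO libraries and at 13.7, 15.8, 9.15, 11.2 and 9.63 CPM in the Spred1 wt libraries (log2 difference 0.86 ± 0.19 SE, adjusted p = 0.121). Of the 6, 5 lay above all Spred1 wt libraries. Without global KO library 5 the adjusted p was 0.014, and without Spred1 wt library 2 it was 0.0486. Tgif2, a repressor of TGF-β signalling, was at 0.38 ± 0.10 (SE; adjusted p = 0.243). Gem, an inducible RAS-related GTPase, was at 1.25 ± 0.34 (SE; adjusted p = 0.288), with levels from 12.4 to 68.8 CPM against 9.32 to 15.3 CPM. Of the 12 genes named here as next higher, Invs, which encodes inversin, was the 1 whose groups did not overlap: its 6 global KO libraries, from 31.8 to 37.8 CPM, lay above the 5 Spred1 wt libraries, from 27.4 to 30.2 CPM (adjusted p = 0.297). Adss, Ube2o, Ccdc107, Klhl25, Whrn, Angptl2 and Mesdc1 had log2 differences from 0.21 to 0.68 and adjusted p-values from 0.29 to 0.363. Ube2o lies within 500 kb of St6galnac2. For it 5 of 6 global KO libraries lay above all Spred1 wt libraries, and global KO library 2 was lowest of the 6, at 46.9 CPM. Gem, Invs, Ccdc107 and Whrn lie on chromosome 4, as does Zfp979, which was lower. There 7.71% of 843 tested genes had an unadjusted p under 0.05, against 5.53% of all genes. An effect of position was not tested.

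Over all tested genes, the 6 global KO libraries lay wholly above the 5 Spred1 wt libraries for 0.112% and wholly below for 0.209%, together 0.321%. Outside the flank these were 14 and 25 genes, of which 3 passed the adjusted test, namely Ccnd1, Mtrr and Fastkd3. With 462 ways to split 11 libraries into 6 and 5, the smallest p of an exact permutation test for a single gene, counting both directions, is 0.00433. Tlr4, the lipopolysaccharide receptor, was picked from the lower set after its values were seen. It ran from 24.5 to 29.1 CPM against 29.3 to 59.7 CPM (adjusted p = 0.44).

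ERK output and feedback genes leaned higher. Of 18 tested, 15 had a log2 difference above 0, against 54.5% of all genes, and the median was 0.25 against 0.01 outside the flank. Ccnd1 was the 1 that rose and none fell; 7 had an unadjusted p under 0.05, all higher, against 5.53% of all genes in either direction. DESeq2 and limma voom also called Ccnd1 alone. Spry2, Spred2, Etv4, Myc, Phlda1 and Lif of this list are named after their values were seen.

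The feedback inhibitors among them did not pass singly. Spry4, a Sprouty inhibitor of the RAS cascade, was at 2.03, 5.62, 2.58, 3.67, 5.33 and 5.74 CPM in the global KO libraries and at 1.54, 2.28, 2.92, 1.82 and 2.86 CPM in the Spred1 wt libraries. Of the 6, 4 lay above all Spred1 wt libraries, and the log2 difference was 0.86 ± 0.29 (SE; adjusted p = 0.562). Spry2 was at 0.35 ± 0.15 (SE; adjusted p = 0.806) and Spred2, the paralog of Spred1, at 0.19 ± 0.08 (SE; adjusted p = 0.843). Dusp6, the phosphatase that acts on ERK in the cytoplasm, was at 0.15 ± 0.16 (SE; adjusted p = 0.99), and its groups overlapped, at 77.8 to 120 and 80.2 to 112 CPM.

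The ETS factors of the ETV family were higher without passing. Etv5 was at 39.0, 41.8, 30.2, 42.4, 37.9 and 47.1 CPM in the global KO libraries and at 26.4, 28.5, 39.4, 21.8 and 25.3 CPM in the Spred1 wt libraries (log2 difference 0.49 ± 0.18 SE, adjusted p = 0.647). Spred1 wt library 3 alone overlapped the global KO range. Etv4, at a mean of 1.61 ± 0.93 CPM (SD, n = 6) against 0.528 ± 0.35 (SD, n = 5), was at 1.60 ± 0.71 (SE; adjusted p = 0.847). With the mast cell markers as a covariate its log2 difference was 2.52 and it passed (adjusted p = 0.0221). With the neutrophil markers as a covariate it was 1.17 ± 0.86 (SE; adjusted p = 0.852). Etv4 passed in 1 of 20 alternatives. Myc was at 0.23 ± 0.10 (SE; adjusted p = 0.837), and its groups ran from 321 to 432 CPM and from 246 to 360 CPM.

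Lif, a cytokine gene, and Phlda1 went the other way, at -1.14 each with adjusted p-values of 0.915. Both were highest in the 4 libraries with high mast cell markers: Lif was at 51.1 CPM in global KO library 2 and at 54.6, 64.2 and 47.7 CPM in Spred1 wt libraries 3 to 5, and at 23.2 CPM or less in the 7 others. Averaged over the 18 genes, the mean log2 CPM was 3.85 ± 0.36 (SD, n = 6) in global KO and 3.67 ± 0.14 (SD, n = 5) in Spred1 wt. Global KO libraries 2, 4, 5 and 6, at 3.92 to 4.26, were above every Spred1 wt library, and libraries 1 and 3, at 3.41 and 3.42, were below every one. In the HSC KO comparison 13 of the 18 were higher, with a median of 0.15, and for no gene of the list did the 2 effects differ by edgeR's interaction test.

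**Figure D3:**
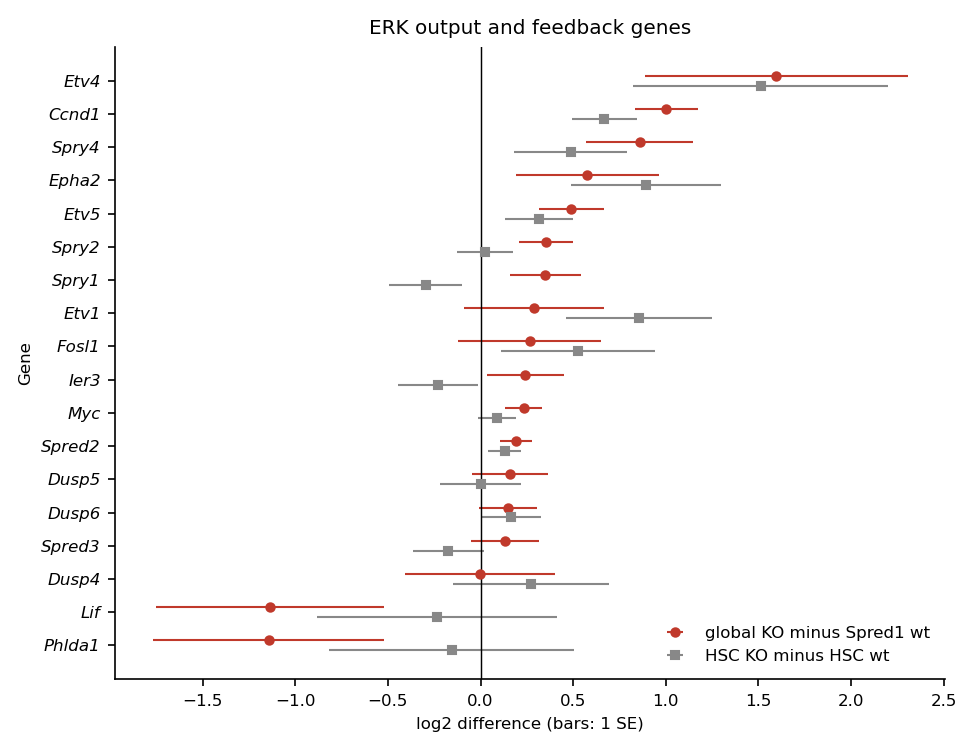
Log2 differences (x axis, bars of 1 SE) of the 18 tested ERK output and feedback genes (y axis), for global KO minus Spred1 wt in red and HSC KO minus HSC wt in grey. Ccnd1 has the narrowest bar relative to its distance from 0; Etv4 is farther from 0 with a wide bar, and Lif and Phlda1 lie below 0.

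No gene of the cascade itself passed. Of 27 genes for RAS, its exchange factors and GTPase-activating proteins, RAF, MEK and ERK, 17 were above 0, the median was 0.02, the group means of log2 CPM differed by -0.04, and none passed in edgeR, DESeq2 or limma voom, with 2 at an unadjusted p under 0.05. Nf1, whose product SPRED1 recruits, was at 0.14 ± 0.08 (SE; adjusted p = 0.915). Rasal3, a RAS GTPase-activating protein of blood cells, was at 0.17 ± 0.08 (SE; adjusted p = 0.903). Immediate early genes, which ERK and stress induce within minutes, had a median of 0.06 but a difference of mean log2 CPM of -0.03, with 12 of 20 above 0 and 0 at an unadjusted p under 0.05. Fos ran from 343 to 1040 CPM in global KO and from 500 to 1360 CPM in Spred1 wt.

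G1 regulators, Ccnd1 included, did not move as a group: 10 of 20 were above 0 and the median was -0.02. Cdkn1c, the p57 inhibitor of cyclin-dependent kinases that marks quiescent stem cells, was at -0.62 ± 0.31 (SE; adjusted p = 0.904), 4 of 6 global KO libraries lying below all Spred1 wt libraries. Of S phase genes 17 of 20 were above 0, with a median of 0.09 (0.0407 without Spred1 wt library 5), and Mcm6, a subunit of the replicative helicase, was at 0.15 ± 0.07 (SE; adjusted p = 0.877). G2 and M phase genes had a median of -0.03, with 5 of 20 above 0; Aurkb, a mitotic kinase, was at 0.17 ± 0.09 (SE; adjusted p = 0.915). The replication-dependent histone genes, whose transcripts lack the usual poly(A) tail, had a median of 0.28 (0.143 without global KO library 6), with 42 of 51 above 0 and 4 at an unadjusted p under 0.05. Hist1h4c was at 1.27 ± 0.41 CPM (SD, n = 6) against 0.795 ± 0.03 (SD, n = 5; adjusted p = 0.698). Near-identical histone genes share reads, so single members are uncertain. No gene of the S phase, G2 and M phase or histone lists passed in edgeR, DESeq2 or limma voom.

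Survival genes gave no call. Of 15 tested BCL2 family genes 9 were above 0, the median was 0.02 and 0 had an unadjusted p under 0.05. Bcl2 ran from 124 to 187 CPM in global KO and from 128 to 172 CPM in Spred1 wt. Among 20 p53 target genes 7 were above 0 and the median was -0.02; 4 had an unadjusted p under 0.05, all lower, and none passed in edgeR, DESeq2 or limma voom. Fas, a death receptor, was at 0.722 to 1.56 CPM in global KO and 1.63 to 2.32 CPM in Spred1 wt, without overlap (log2 difference -0.70 ± 0.21 SE, adjusted p = 0.371). Eda2r and Zmat3 had 5 of 6 global KO libraries below all Spred1 wt libraries, at -0.97 and -0.38.

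Stem cell genes were spread around 0. Of 22 tested genes of long-term haematopoietic stem cells 11 were above 0, the median was -0.02 and none passed in edgeR, DESeq2 or limma voom, with 2 at an unadjusted p under 0.05. Cd34, an antigen of progenitors, was at 0.25 ± 0.11 (SE; adjusted p = 0.857), and its 2 lowest libraries were Spred1 wt 4 and 5, at 530 and 618 CPM. Meg3, an imprinted long noncoding RNA of quiescent stem cells, was at -0.79 ± 0.33 (SE; adjusted p = 0.821). Hlf, a stem cell transcription factor, overlapped between groups, at 142 to 367 against 113 to 314 CPM. HOX, MEIS and PBX genes had a median of 0.03, with 9 of 12 above 0 and 0 at an unadjusted p under 0.05. Of 14 surface genes used to mark CML stem cells 9 were above 0, with a median of 0.08 and a difference of mean log2 CPM of -0.10, and Il1rap was at -0.14 ± 0.10 (SE; adjusted p = 0.953). Egfl7, the host gene of the stem cell microRNA miR-126, was at 88.6, 47.4, 73.8, 58.4, 58.0 and 81.0 CPM against 61.3, 64.4, 63.1, 26.6 and 38.8 CPM (log2 difference 0.42 ± 0.19 SE, adjusted p = 0.897).

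STAT5, which BCR-ABL and cytokine receptors activate, induces Socs2, Cish and Il2ra, and these 3 were high in the same 4 libraries of both genotypes. Il2ra, the CD25 antigen, was at 11.3, 110, 5.38, 10.3, 17.1 and 1.69 CPM in the global KO libraries and at 8.14, 15.3, 121, 113 and 97.7 CPM in the Spred1 wt libraries. Its 4 highest libraries were the 4 with the highest mast cell markers. Socs2, a feedback inhibitor of cytokine signalling, was at 76.9 CPM in global KO library 2 and at 84.5, 72.4 and 70 CPM in Spred1 wt libraries 3 to 5, and at 32.6 CPM or less in the 7 others. The 16 genes of the list had a median of -0.07 and a difference of mean log2 CPM of -0.34. Of the 16, 5 were above 0, and 0 had an unadjusted p under 0.05. Il2ra, Socs2 and Cish passed in 0 of 20 alternatives, which include the mast cell covariate. How much of these values came from mast cells was not tested. Since the libraries are of bulk RNA, fewer cells of a type and less RNA per cell cannot be told apart, here or for any gene above. Receptors of myeloid cytokines had a median of -0.00 with 9 of 18 above 0; Csf2rb2, a receptor subunit for interleukin 3, was at 508 CPM in global KO library 2 and 535 CPM in Spred1 wt library 3, and Il6ra was at 0.28 ± 0.10 (SE; adjusted p = 0.684). PI3K, AKT and mTOR components gave no call in edgeR, DESeq2 or limma voom and 0 at an unadjusted p under 0.05, with a median of 0.01 and 13 of 22 above 0.

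Immune pathway genes did not pass. Interferon-stimulated genes had 5 of 24 above 0 and a median of -0.11, which was -0.0176 without global KO library 4 and turned to 0.0724 with the neutrophil covariate. Zbp1, a nucleic acid sensor, was at -0.81 ± 0.34 (SE; adjusted p = 0.821). MHC class II presentation genes had 10 of 11 above 0 and a median of 0.28, with 0 at an unadjusted p under 0.05 and none called in DESeq2 or limma voom. That median was 0.0667 without global KO library 1 and turned to -0.114 with the mast cell covariate. MHC class I genes had a median of 0.05, with 10 of 16 above 0, and DESeq2 called H2-T10. NF-κB regulators and inflammatory genes had a median of 0.09 and a difference of mean log2 CPM of -0.03, with 11 of 17 above 0. Genes of integrins and niche homing had a median of -0.02 and a difference of mean log2 CPM of 0.02; Itgal, the LFA-1 alpha chain, was at 0.24 ± 0.08 (SE; adjusted p = 0.521) and Itga4, of VLA-4, at 0.31 ± 0.15 (SE; adjusted p = 0.897), its lowest 2 libraries being Spred1 wt 4 and 5.

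Cholesterol synthesis genes leaned higher by a small amount: 17 of 21 were above 0, the median was 0.12, and 5 had an unadjusted p under 0.05, all higher. Fdft1, squalene synthase, was at 24.3, 23.1, 22, 25.3, 23.1 and 22.3 CPM in the global KO libraries and at 20, 20.7, 21.5, 17.7 and 19.1 CPM in the Spred1 wt libraries. The groups did not overlap, and the log2 difference was 0.24 ± 0.08 (SE; adjusted p = 0.575). Sqle, squalene epoxidase, was at 0.22 ± 0.09 (SE; adjusted p = 0.821). None of the list passed in edgeR, DESeq2 or limma voom. Without Spred1 wt library 1 its median was 0.06. Genes of nuclear-encoded oxidative phosphorylation, glycolysis, and MYC and ribosome biogenesis had medians of 0.04, -0.00 and 0.04; Hk2, a hexokinase, was at 0.19 ± 0.08 (SE; adjusted p = 0.821). Of 77 tested cytosolic ribosomal protein genes 74 were above 0, with a median of 0.11 (0.0538 without global KO library 1) and 6 at an unadjusted p under 0.05. None of them passed in edgeR, DESeq2 or limma voom; Rps20 was at 0.23 ± 0.09 (SE; adjusted p = 0.785) and Rpl9 at 0.17 ± 0.07 (SE; adjusted p = 0.816).

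Amino acid stress genes under ATF4 leaned lower, 18 of 21 with a median of -0.32. Of these, 7 had an unadjusted p under 0.05, all lower, and none passed in edgeR or limma voom; the 1 that passed in DESeq2 lies within the chromosome 2 flank, and the median without it was -0.31. Without Spred1 wt library 4 the list's median was -0.0465. A pair of libraries stood above the rest: the list's mean log2 CPM was 5.95 and 5.2 in Spred1 wt libraries 4 and 5, 4.46 to 4.8 in the other 3, and 4.28 to 4.83 in the 6 global KO libraries. Stc2, a secreted stress protein named after its values were seen, was at 9.68 and 2.99 CPM in those 2 and at most 1.32 CPM elsewhere (adjusted p = 0.669). Atf5 and Ddit3, stress transcription factors, were at -0.63 ± 0.22 (SE; adjusted p = 0.58) and -0.47 ± 0.17 (SE; adjusted p = 0.647). Atf4 itself was at -0.14 ± 0.12 (SE; adjusted p = 0.973). ER chaperone genes had a median of -0.13, with 2 of 20 above 0, and of -0.0114 without Spred1 wt library 4; Sel1l, of ER-associated degradation, was at -0.19 ± 0.07 (SE; adjusted p = 0.689), and Xbp1 at -0.37 ± 0.16 (SE; adjusted p = 0.843).

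**Figure D4:**
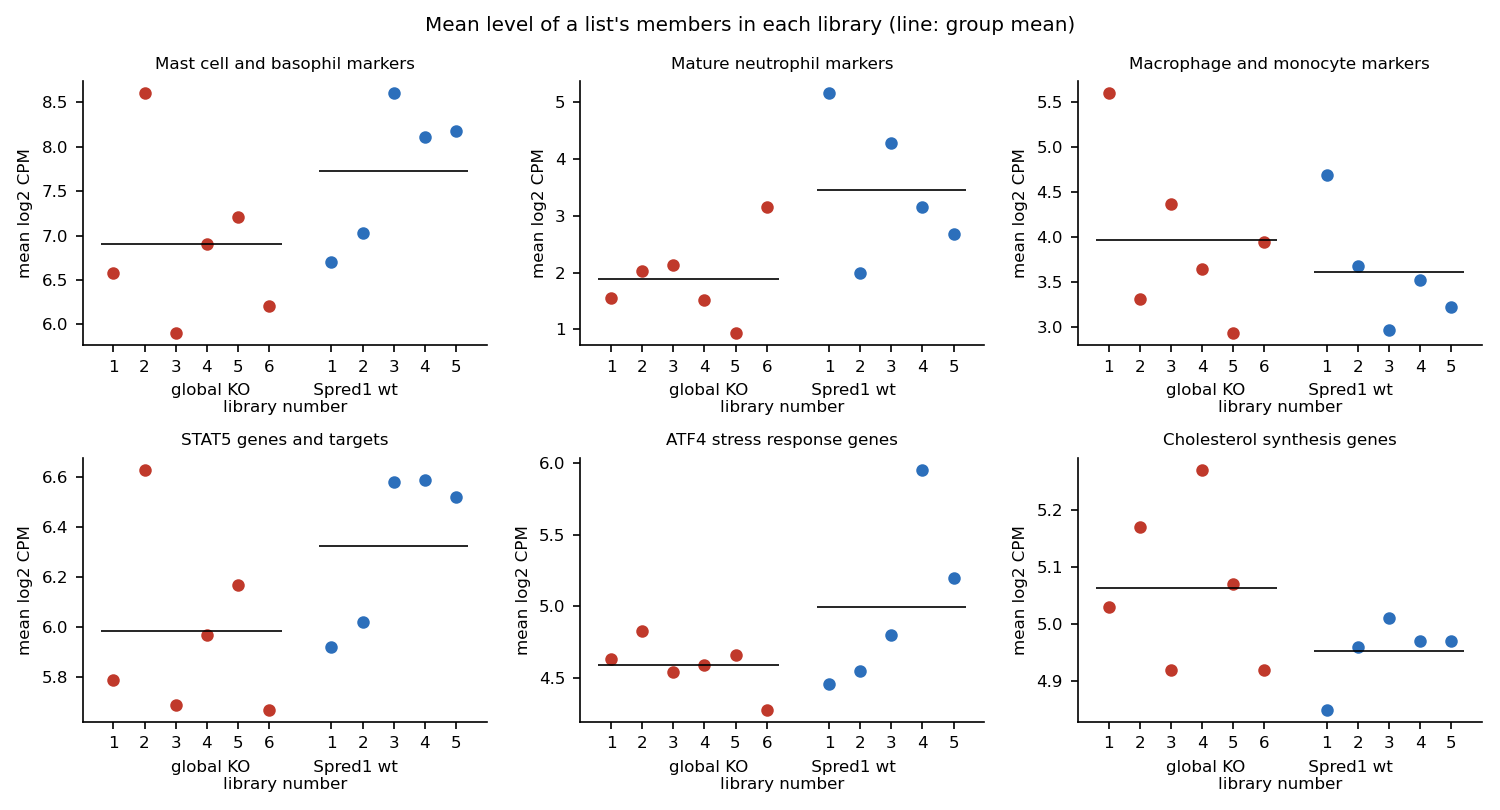
Mean log2 CPM (y axes) of the tested members of 6 gene lists in each of the 6 global KO (red) and 5 Spred1 wt (blue) libraries (x axes), with group means as lines. Mast cell and STAT5 values are high in global KO 2 and Spred1 wt 3 to 5, neutrophil values are highest in Spred1 wt 1, and ATF4 values are highest in Spred1 wt 4 and 5.

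Markers of other cells a sort could hold were read over whole lists. Mature neutrophil markers had a median log2 difference of -2 (-1.23 without Spred1 wt library 1), with 12 of 14 below 0 and 10 at an unadjusted p under 0.05, all lower; 0 passed in edgeR or limma voom and 3 in DESeq2 (Cd177, Ltf and Ly6g). Ltf, lactoferrin, was at 0.572, 2.26, 1.94, 1.09, 0.445 and 11.3 CPM in the global KO libraries and at 72.7, 2.9, 37.2, 15.8 and 9.04 CPM in the Spred1 wt libraries. Only global KO library 6 reached into the Spred1 wt range. S100a8, a calgranulin named after its values were seen, ran from 6.39 to 29.8 CPM against 9.5 to 190 CPM, and Cd177 from 0.445 to 2.42 CPM against 1.19 to 15.6 CPM (adjusted p = 0.258). Ly6g, which defines the lineage, was at or near 0, with at most 0.0647 CPM in global KO and 1.6 CPM in Spred1 wt. Summed over the list, levels were 127 to 298 CPM against 145 to 980 CPM.

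Earlier stages of the same lineage overlapped. All 10 primary granule genes were below 0, with a median of -0.31 (-0.0697 without Spred1 wt library 4) and 0 at an unadjusted p under 0.05; Mpo, myeloperoxidase, ran from 2490 to 6070 CPM against 3180 to 7970 CPM, and Elane from 340 to 714 CPM against 344 to 1040 CPM. Mast cell and basophil markers had a median of -0.74, with 14 of 16 below 0; it was -1.33 without global KO library 2 and -0.459 without Spred1 wt library 3. Cpa3, mast cell carboxypeptidase, was at 3950 CPM in global KO library 2 and from 285 to 801 CPM in the other 5. Prss34, a basophil protease, went the other way, at 1.06 ± 0.59 (SE; adjusted p = 0.917). Macrophage and monocyte markers had a median of 0.65, which was -0.000934 without global KO library 1; C1qa was at 40.7 CPM in global KO library 1 and at most 13.6 CPM in any other, and without that library its log2 difference was -0.17. Of B and plasma cell markers 5 of 13 were above 0, and Jchain ran from 78.9 to 328 CPM against 161 to 441 CPM. No marker of the granule, mast cell, macrophage, erythroid, megakaryocyte, B, T and NK, or endothelial lists passed in edgeR, DESeq2 or limma voom. Medians were 0.24 for 13 erythroid, 0.06 for 13 megakaryocyte, -0.37 for 13 B and plasma cell, -0.15 for 10 T and NK cell and -0.06 for 15 endothelial and stromal markers, with 1 B cell and 1 endothelial marker at an unadjusted p under 0.05. The erythroid median was -0.00414 without global KO library 1 and -0.336 with the mast cell covariate. The difference of mean log2 CPM was of the opposite sign for megakaryocyte markers, at -0.07, and for T and NK cell markers, at 0.00241. Lymphoid priming genes had a median of 0.31 with 10 of 14 above 0; it was 0.168 without global KO library 6 and turned to -0.202 with the mast cell covariate. Flt3, a receptor of early progenitors, was at 0.34 ± 0.22 (SE; adjusted p = 0.917). With the neutrophil markers as a covariate Ccnd1, Mtrr, Fastkd3 and St6galnac2 were again the genes called outside the flank.

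**Figure D5:**
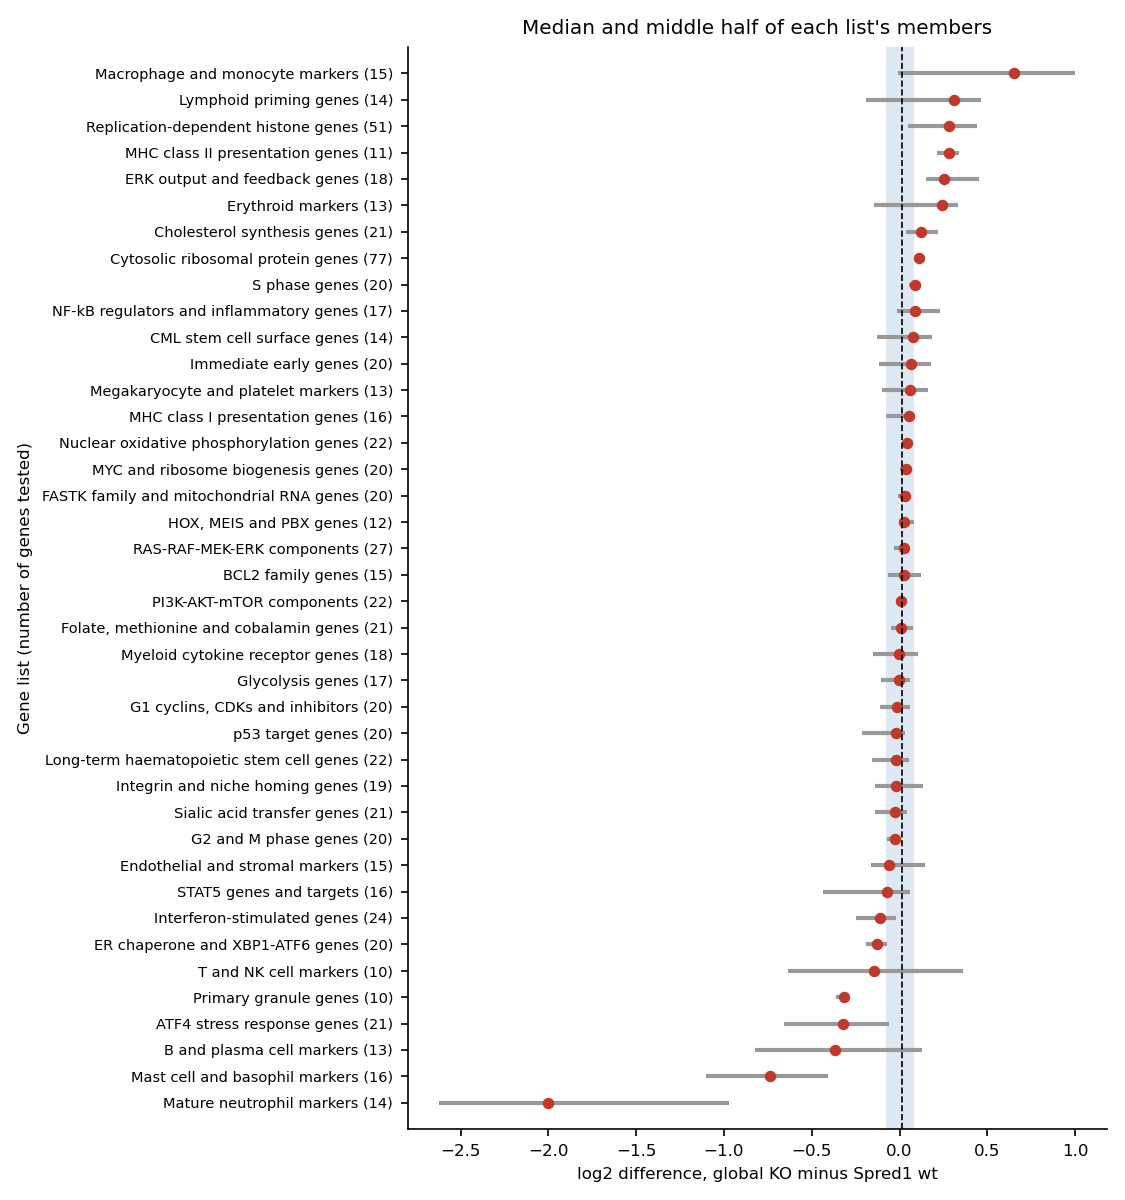
Median (points) and interquartile range (bars) of the log2 difference, global KO minus Spred1 wt (x axis), over the tested members of each of 40 gene lists (y axis, with the number tested). The dashed line and shaded band give the median and interquartile range of all 13379 genes; mature neutrophil markers lie lowest at -2 and macrophage markers highest at 0.65.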

How the data were processed

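RNA of sorted LSK cells was sequenced in 26 libraries. Per the submitters' processing notes, the authors worked on mm10 with HTSeq 0.6.0 and edgeR 3.28.1, besides STAR (version 2.6.0) and bcl2fastq (version 2.18.0.12); the role of each step, the annotation and the strand setting are not given in the sources used here. The deposited values are whole-number counts per gene, as the authors made them, for 24091 genes, of which 5297 were 0 in all libraries. Groups came from the titles, which match the count columns. From the counts, TMM scaling, filterByExpr (minimum count 10; 13379 genes kept) and edgeR 4.0.16 quasi-likelihood tests (R 4.3.3) with robust dispersion and Benjamini-Hochberg adjustment were run over all 5 groups (21 residual degrees of freedom). The SE is the log2 difference divided by the square root of F, and log2 CPM used a prior count of 2. DESeq2 1.42.0 and limma 3.58.1 voom, other scalings and filters, marker covariates and leaving out each library were alternatives.

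Genes named were every called gene outside the flank, the next 12 higher and 12 lower by p at 5 CPM or more, the first 3 and the 3 of smallest p of each list, neighbours within 500 kb of called genes, Spred1 and Egfl7; others are marked. The members and the 40 lists were chosen with earlier results of these data known. Of 759 tested list members 19 lie in the flank. Counts limit precision by depth: values below about 1 CPM rest on few reads. Some genes that the naming rule selects are not reported here.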

Additional observations from a re-analysis of the deposited data

Results flagged for a closer look

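In 130 groups of values, 5 held a library whose gap to the others exceeded Dixon's limit, and chance alone flags about 1 in 20 groups. Global KO library 2 was at 0 CPM for BC018473, where the other 5 ran from 70.1 to 104 CPM. The same library was at 110 CPM for Il2ra, against 1.69 to 17.1 CPM, and at 76.9 CPM for Socs2, against 9.2 to 23.4 CPM. Global KO library 6 was at 11.3 CPM for Ltf, against 0.445 to 2.26 CPM. For the surface genes of CML stem cells, Spred1 wt library 3 had a mean log2 CPM of 6.58, against 6.19 to 6.24 in the other 4.

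The global KO effect minus the HSC KO effect was -1.23 for Fastkd3 and -0.977 for Mtrr on the log2 scale, and both passed edgeR's interaction test (adjusted p = 8.37e-05 and 5.48e-06).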

How the results depend on the processing

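Outside the flank 2 genes were higher and 2 lower. DESeq2 gave 6 higher and 17 lower, limma voom 1 and 9, the mast cell covariate 6 and 8, and the 2 groups alone 0 higher (490 genes at an unadjusted p under 0.05 over all genes). Leaving out 1 library gave 1 to 6 higher and 2 to 11 lower, with the most without Spred1 wt library 2; without global KO library 2 there were 10 lower, and without Spred1 wt library 1 there were 5 of each. Effects differing from HSC KO numbered 2, with 6 in DESeq2, 5 in limma voom and 2 to 4 on leaving out 1 library. Of 40 list medians 15 kept their sign in all alternatives. The T and NK median was -0.282 at 1 CPM or more, -0.286 on the 2 groups alone, -0.315 with the mast cell and -0.309 with the neutrophil covariate. The macrophage median was -0.0515 in limma voom. With the mast cell covariate, medians were -0.553 for interferon-stimulated, -0.0669 for MHC class I and -1.02 for B and plasma cell genes. With the neutrophil covariate they were 0.418 for ERK output, 0.0068 for S phase, -0.125 for G2 and M phase, 0.0708 for neutrophil and 0.536 for histone genes. That covariate is the mean of the neutrophil list itself, so the neutrophil value near 0 was fixed in advance and is no result. Leaving out 1 library, medians ran from -0.115 (without global KO library 2) to -0.0258 for p53 targets, -0.0127 (without Spred1 wt library 3) to 0.0803 for MHC class I, 0.0599 (without Spred1 wt library 1) to 0.18 for cholesterol synthesis and -0.488 (without Spred1 wt library 1) to -0.0326 for T and NK markers. Signs turned for C1qa in limma voom (-0.0968), Hlf with the mast cell covariate (-0.121), and Fos (0.0715) and S100a8 (0.0783) with the neutrophil covariate. S100a8 is a member of the list that makes up that covariate, so its turn carries no information. On leaving out 1 library, Fos ran from -0.298 to 0.067, Ccnd3 from -0.0933 to 0.0132, Bcl2 from -0.0139 to 0.115, Atf4 from -0.205 to 0.0372 and C1qa from -0.169 to 2.08. The causes were not tested. No paired analysis was possible because the labels give no replicate numbers that groups share.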
